A study of Mus musculus with 6 samples.

Results

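The insulin-like growth factor (IGF) system was followed in mouse glioma cells over 3 doses (0, 5 and 10 µM) of SHP099, which inhibits allosterically the tyrosine phosphatase SHP-2. Its 10 genes were taken by symbol: the ligands Igf1 and Igf2, the receptors Igf1r and Igf2r, and the binding proteins Igfbp2, Igfbp3, Igfbp4, Igfbp5, Igfbp6 and Igfbp7. They are 10 of the 53346 gene symbols in the files, each with a single row, and 7 of them reached a mean of 1 FPKM (fragments per kilobase of transcript, scaled to the number of mapped fragments) in at least 1 dose. Igf2, Igfbp2 and Igfbp5 did not reach that level in any dose. The other 7 are among the 12567 genes compared here.

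According to the labels, the cells at every dose are astrocytes with both Ink4a/Arf copies lost (-/-) that carry PDGFRa and PDGF-A, and they are also labelled as tumor and glioma cells. The group without the drug therefore shares this genotype with both treated groups. How long the drug was given, how many clones were used and what drives PDGFRa and PDGF-A are not in the labels. Polyadenylated RNA was sequenced, and each dose has 2 files, whose labels differ in the lane (6 or 7) and are otherwise the same. They were read here as lanes of 1 library, which gives 3 libraries, although the columns of the files are numbered R1 and R2 and no label says outright that they are not separate libraries. Recovered fragments of 1583 to 1658 genes differed between the files of a dose with a chi-square of 1.66 to 1.93 for each degree of freedom, where counting error alone gives a value near 1. On this reading the spread between lanes is that of sequencing and not that between cultures, and no p-value between doses is given.

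IGF1 and IGF2 are secreted growth factors that activate the receptor tyrosine kinase encoded by Igf1r, which signals through IRS docking proteins to PI3 kinase and AKT and through RAS to ERK. The receptor encoded by Igf2r has no kinase activity; it takes IGF2 up for degradation and carries lysosomal enzymes tagged with mannose 6-phosphate. The binding proteins hold IGFs outside cells, and proteases that cut them release the ligand. In glioma, the IGF receptor is known as one of the kinases that can act beside the PDGF receptor.

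Depth, worked out from the steps in low FPKM values, came to 46880000 and 47120000 mapped fragments for the lanes of the 0 µM library, to 37900000 and 38580000 for those of 5 µM and to 30820000 for both of 10 µM. A transcript of 2 kb at 1 FPKM then has 61.6 to 94.2 fragments in a lane, and 3 fragments of it correspond to 0.0318 to 0.0487 FPKM, for counting error only. Cdkn2a, the Ink4a/Arf gene labelled as lost, was listed at 527 to 826 FPKM over the 6 files, and a value per gene does not show which part of it was read. The SHP-2 gene Ptpn11 was at 56.8 to 60.3 FPKM. The lane 6 file of 5 µM lists the small nucleolar RNA Snora62 at 385860 FPKM and all other files at 0; without it the FPKM of that file sum to 567274, against 567051 in lane 7. Mitochondrial genes held 4.85% and 4.92% of the summed FPKM without the drug, 7.10% in both lanes of 5 µM and 7.99% and 8.18% with 10 µM; the part of this in the changes below was not tested. The astrocyte markers were mostly absent: 2 of 8 reached 1 FPKM (Slc1a3 and Gja1), Gfap was at 0.03, 0.02 and 0 FPKM at 0, 5 and 10 µM, and Aqp4 was at 0 in every file.

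The promoters of the binding protein and receptor genes that changed are shown first, so that the genes that rose (Igf2r, Igfbp4 and Igfbp7) can be read beside the one that fell (Igfbp6). Each is the 250 bases before the transcription start in RefSeq, build GRCm38.p6, 5′ to 3′ on the gene's strand. The submitters' processing notes name the older build mm8, so the genes were matched by symbol and no position comes from the files. Capitals mark matches, on either strand, to 6 motifs: the AP-1 motif was searched as TGANTCA, the FOXO motif as TGTTTAC, the E-box as the letters CACGTG, the ETS motif as CCGGAAG, the GC box as GGGCGG and the TATA box as the letters TATAAA. Igf1 also rose; its window overlaps annotated exons and is not printed.
Igf2r, chr17:12769707-12769956, minus strand: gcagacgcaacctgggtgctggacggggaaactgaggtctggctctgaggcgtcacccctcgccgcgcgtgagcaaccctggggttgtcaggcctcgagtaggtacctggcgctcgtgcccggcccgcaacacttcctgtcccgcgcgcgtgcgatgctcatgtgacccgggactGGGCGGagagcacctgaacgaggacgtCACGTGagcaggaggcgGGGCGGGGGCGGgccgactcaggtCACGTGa
Igfbp4, chr11:99040994-99041243, plus strand: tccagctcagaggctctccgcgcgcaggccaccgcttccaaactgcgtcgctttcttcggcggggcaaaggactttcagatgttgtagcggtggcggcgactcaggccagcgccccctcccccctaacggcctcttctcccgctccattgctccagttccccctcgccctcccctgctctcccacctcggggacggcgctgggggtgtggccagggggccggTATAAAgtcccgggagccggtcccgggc
Igfbp7, chr5:77408046-77408295, minus strand: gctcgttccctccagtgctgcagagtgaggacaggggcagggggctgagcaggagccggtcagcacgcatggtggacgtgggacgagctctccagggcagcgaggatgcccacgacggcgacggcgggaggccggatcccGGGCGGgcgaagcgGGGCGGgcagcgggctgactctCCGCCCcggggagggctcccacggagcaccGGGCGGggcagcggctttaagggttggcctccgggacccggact
Igfbp6, chr15:102143936-102144185, plus strand: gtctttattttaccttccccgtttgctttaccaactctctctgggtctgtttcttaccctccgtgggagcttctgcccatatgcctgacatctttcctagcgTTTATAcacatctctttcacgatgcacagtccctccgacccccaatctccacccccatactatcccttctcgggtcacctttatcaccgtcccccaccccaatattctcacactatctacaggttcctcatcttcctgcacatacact

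The Igf2r window holds a pair of E-boxes, which begin 48 and 7 bases before the start, and 3 GC boxes, of which the 2 nearest the start adjoin each other. E-boxes were found in 6.02% and GC boxes in 32.7% of 32851 promoter windows of the same length. The Igfbp7 window holds 4 GC boxes and none of the other motifs. The Igfbp4 window has a TATA box that begins 28 bases before the start, and the Igfbp6 window has those letters on the opposite strand, 148 bases before it; 12.4% of windows have a match. None of the 4 windows matched the AP-1, FOXO or ETS letters, which 6.75%, 3.17% and 6.91% of all windows hold. The window of Igf1, which also rose and is not printed, has an AP-1 match that begins 37 bases before the start. The G and C content was 69.2% for Igf2r and Igfbp4, 74.0% for Igfbp7 and 49.6% for Igfbp6. It was 52.8% for Igf1, which rose, and 77.6% for Igf1r and 73.2% for Igfbp3, which did not pass the rule given below. The median of all promoter windows was 52.4%. A match describes letters only, and factor binding was not measured.

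A gene is said to have risen or fallen here when its mean log2(FPKM + 1) over the lanes differed by at least 1.5-fold between doses and the 4 pairings of their lanes all gave that direction. At 10 against 0 µM, Igf1, Igf2r, Igfbp4 and Igfbp7 rose and Igfbp6 fell, and Igf1r and Igfbp3 did not pass. Thus 4 of 7 genes rose, beside 15.7% of the 12567 genes compared, and 1 fell, beside 19.1%; in either direction 5 of 7 passed, beside 34.8%. The same 5 genes passed in the same directions at 5 against 0 µM, where 14.1% of all genes rose, 16.8% fell and 30.9% did either. Both comparisons use the same 0 µM library, and the 10 genes were chosen with earlier results of these data known. None of the 7 passed at 10 against 5 µM, where 1.77% of all genes did. The median log2 fold of the 7 genes was 0.86 at 10 and 0.79 at 5 µM against 0 µM, and that of all genes compared was -0.03 in both. With files scaled to the same sum of FPKM outside small nucleolar RNA genes, which raises the median of all genes by 0.20 at 10 µM, 3032 of 12758 genes rose and 1601 fell, in place of 1978 and 2396; the 5 IGF genes kept their calls.

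**Figure D1:**
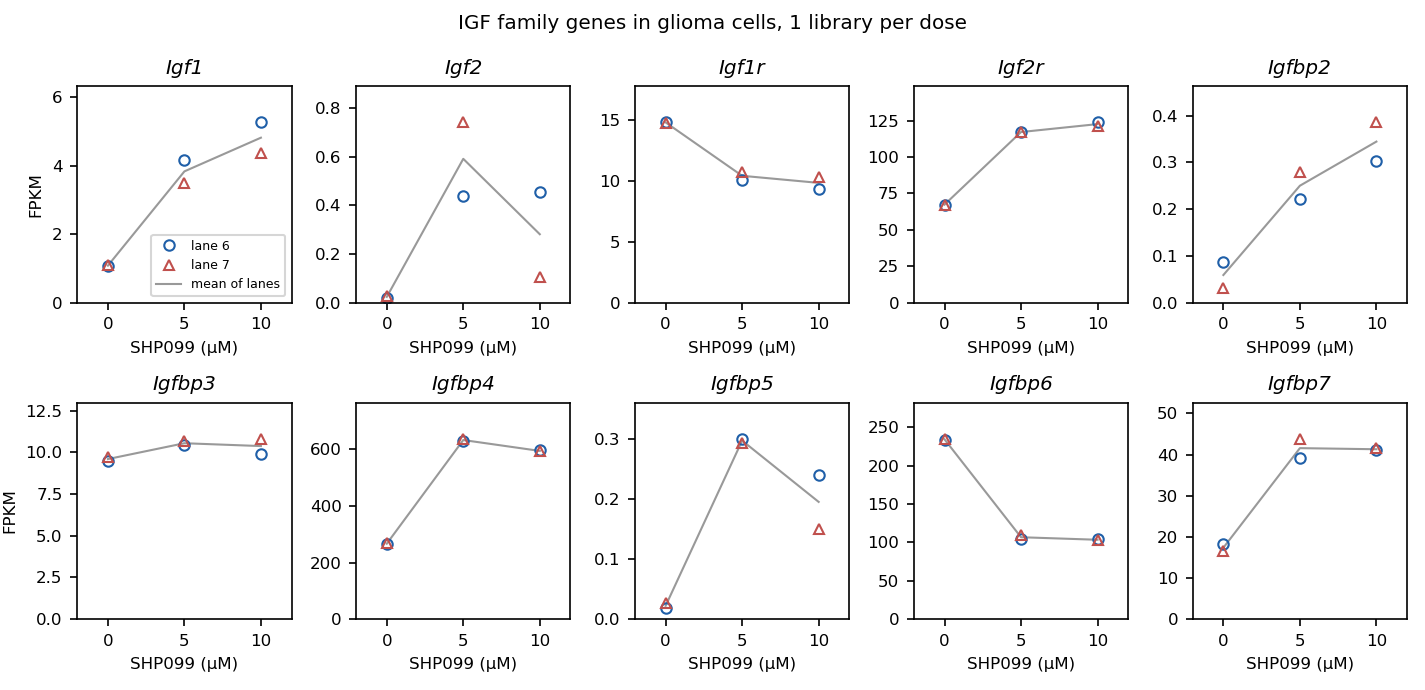
FPKM of the 10 IGF family genes (vertical axes, linear, each gene on its own scale) at 0, 5 and 10 µM SHP099 (horizontal axes); circles are lane 6, triangles lane 7, and grey lines join the means of the lanes. Igf1, Igf2r, Igfbp4 and Igfbp7 are higher and Igfbp6 is lower in both lanes of both treated libraries, by at least 1.5-fold in mean log2(FPKM + 1). Igf1r is lower and Igfbp3 higher in all of these lanes too, by less than 1.5-fold in that mean. Igf2, Igfbp2 and Igfbp5 are also higher there but stay under 1 FPKM.

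Of the ligands, Igf1 was the one that reached 1 FPKM, and it rose at both doses. It was at 1.06 and 1.10 FPKM in lanes 6 and 7 at 0 µM, at 4.17 and 3.51 FPKM at 5 µM and at 5.28 and 4.37 FPKM at 10 µM. All 4 lanes with the drug lay above both lanes without it, and the lanes of 5 and 10 µM did not overlap either, since the lowest of 10 µM exceeded the highest of 5 µM. The share of all genes with lanes apart in this way was not counted. Over all genes compared, the median absolute log2 fold against 0 µM was 0.41 at 10 µM and 0.37 at 5 µM. Lanes of a dose differed by a median of 0.05 to 0.06. Lanes apart, here and for the genes below, are thus no sign of a change between cultures by themselves. The log2 fold of Igf1 was 1.48 (1.35 to 1.61 over the lane pairs) at 10 µM and 1.21 (1.10 to 1.33) at 5 µM. At 10 µM this was the largest fold of the 7 genes, but with a pseudocount of 5 FPKM it was 0.69, smaller than those of Igfbp4 (1.14), Igfbp6 (-1.14), Igfbp7 (1.05) and Igf2r (0.82). The added 1 FPKM lowers the fold of a gene at this level: the ratio of mean FPKM was 4.46 at 10 µM and 3.55 at 5 µM. Between 10 and 5 µM the log2 fold was 0.27 (0.06 to 0.48). With a pseudocount of 5 FPKM the 5 µM difference was 0.54 and no longer passed. The lanes of 1 library differed by up to 1.21 times for Igf1, whose 8 annotated transcripts run from 510 to 7052 bases. Igf1os, antisense to Igf1, had means of 0, 0.061 and 0.0069 FPKM at 0, 5 and 10 µM.

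Igf2, the ligand that Igf2r clears, was listed at 0.019 and 0.028 FPKM at 0 µM, at 0.44 and 0.74 FPKM at 5 µM and at 0.46 and 0.11 FPKM at 10 µM. All values with the drug were above those without it, and the lanes of the 10 µM library differed 4.31 times. Its 9 annotated transcripts run from 376 to 4722 bases, so the number of fragments behind these values cannot be fixed, and Igf2 was not compared. With no filter on low values its log2 fold was 0.63 at 5 µM, which passed, and 0.31 at 10 µM, which did not. Both folds rest on these low values. Igf1 was the more abundant ligand per length of transcript in every lane. H19, the imprinted RNA gene next to Igf2, had means of 0.16, 0.25 and 0.03 FPKM at 0, 5 and 10 µM.

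Microglia and macrophages are a known source of Igf1 in brain, and their markers were measured beside it. Of 10 markers, 2 reached 1 FPKM. Summed over the list, their FPKM ranged from 65.4 to 66.7 between the lanes of 0 µM, from 119 to 123 for 5 µM and from 125 to 132 for 10 µM. Nearly all of it came from Tmem119, at 63.9, 119 and 127 FPKM in the means of 0, 5 and 10 µM, a gene that is also known from bone-forming cells. Cd68, the other marker above 1 FPKM, had means of 2.03, 1.59 and 1.64 FPKM and did not pass (log2 fold -0.19 at 10 µM). C1qa and C1qb were at 0 in every file, and Ptprc, Cx3cr1, Aif1, Csf1r, Itgam and P2ry12 had means under 0.08 FPKM at every dose. The part of such cells in the level of Igf1 was not tested beyond these values.

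Of the receptors, Igf2r rose at both doses and Igf1r did not pass. Igf2r was at 67.3 and 67.2 FPKM in the lanes of 0 µM, at 117.2 and 117.0 FPKM at 5 µM and at 123.9 and 121.2 FPKM at 10 µM. Both treated libraries lay far above the lane spread of the untreated one. The log2 fold was 0.86 (0.84 to 0.87) at 10 µM and 0.79 (0.79 to 0.79) at 5 µM, so that it would not pass a 2-fold rule at either dose. The antisense RNA gene Airn overlaps Igf2r on the opposite strand and had means of 8.02, 16.04 and 15.82 FPKM at 0, 5 and 10 µM; the notes do not say whether fragments were counted by strand, and without that those of overlapping genes cannot be told apart.

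Igf1r, the signalling receptor, was at 14.8 and 14.7 FPKM at 0 µM, at 10.1 and 10.7 FPKM at 5 µM and at 9.33 and 10.3 FPKM at 10 µM. Every lane with the drug was below both lanes without it, and the lanes of 5 and 10 µM overlapped. The log2 fold was -0.55 (-0.61 to -0.48) at 10 µM and -0.47 (-0.51 to -0.43) at 5 µM, short of 1.5-fold in both comparisons. At 10 µM it lay close to that limit: it passed as lower without the lane 7 file of 10 µM (-0.61), in the lane 6 files alone (-0.61) and with a pseudocount of 0.1 FPKM (-0.59). The ratio of Igf2r to Igf1r FPKM within a lane, which no scaling between files can move, was 4.55 and 4.56 without the drug; it reached 11.6 and 10.9 with 5 µM, and 13.3 and 11.8 with 10 µM. The lanes of the 0 µM library were below all others in this ratio.

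**Figure D2:**
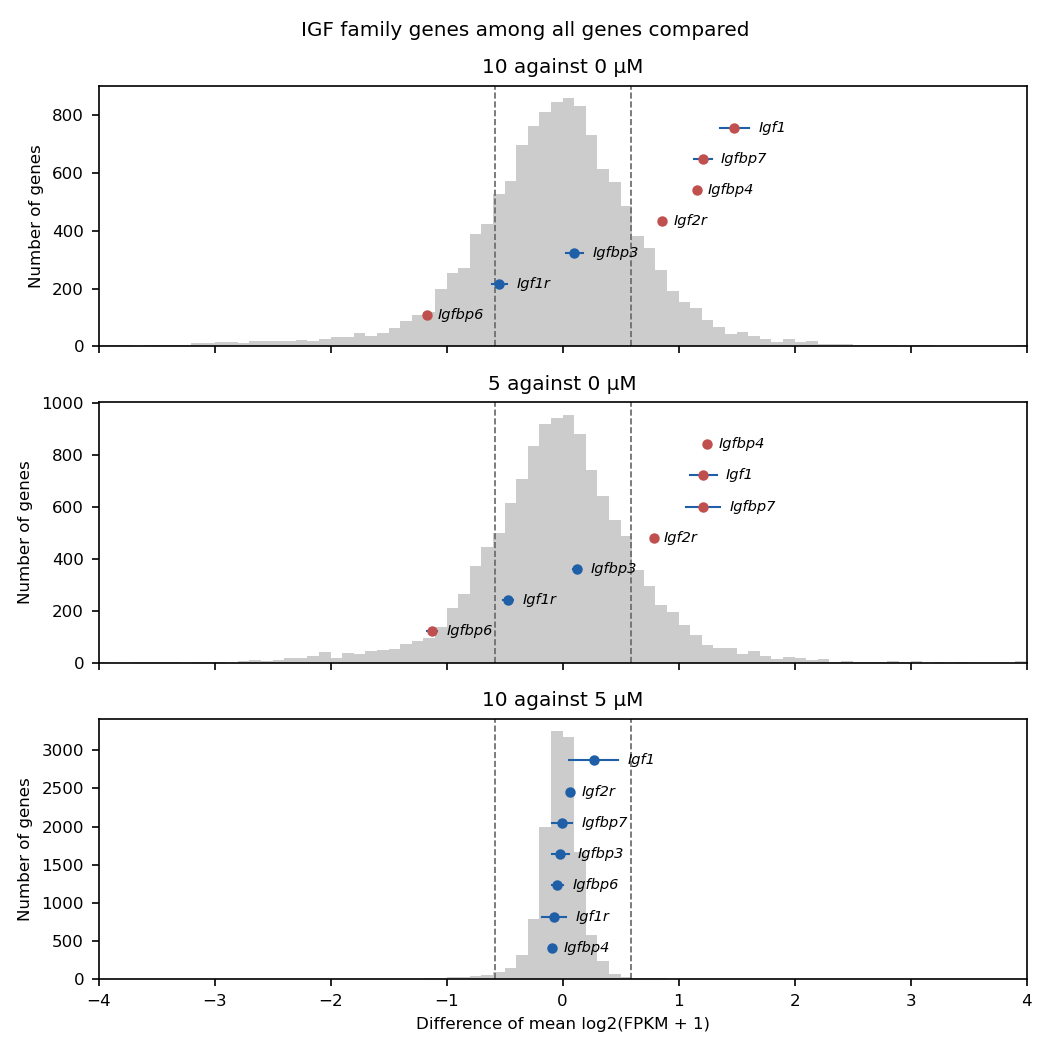
Difference of mean log2(FPKM + 1) between doses (horizontal axis) for all 12567 genes compared (grey histograms, number of genes, bins of 0.1, values beyond 4 placed in the last bin) and for the 7 IGF family genes (points at arbitrary heights, red where the gene passed, blue where it did not; lines span the 4 lane pairs). Dashed lines mark 1.5-fold. Against 0 µM, 4 genes lie to the right of them and Igfbp6 to the left, and none lies outside them between 10 and 5 µM.

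Igfbp4 and Igfbp6 were the most abundant IGF family genes of untreated cells, and they moved in opposite directions. Igfbp4, whose protein binds IGFs until the protease PAPP-A cuts it, was at 264.5 and 268.8 FPKM at 0 µM, at 628.3 and 638.4 FPKM at 5 µM and at 596.7 and 593.0 FPKM at 10 µM. The treated lanes were all above the untreated ones, and the 10 µM lanes lay below the 5 µM lanes. The log2 fold was 1.15 (1.14 to 1.17) at 10 µM, 1.24 (1.22 to 1.27) at 5 µM and -0.09 (-0.11 to -0.07) between 10 and 5 µM. At 10 µM, 111 of the 12567 genes compared had a mean at or above that of Igfbp4, against 327 at 0 µM.

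Igfbp6, known for its preference for IGF2 over IGF1, was at 233.2 and 235.1 FPKM at 0 µM, at 103.8 and 109.4 FPKM at 5 µM and at 104.0 and 102.6 FPKM at 10 µM. It was lower in all 4 treated lanes, and the lanes of 5 and 10 µM overlapped. The log2 fold was -1.17 (-1.19 to -1.16) at 10 µM and -1.13 (-1.17 to -1.08) at 5 µM. It has 1 annotated transcript, of 1112 bases, so its fragments can be recovered: the untreated lanes had 9533 and 9659, those with 5 µM had 3430 and 3681, and those with 10 µM had 2794 and 2759. These counts are at the unequal depths given above. The ratio of mean FPKM to 0 µM, which takes depth into account, was 0.46 at 5 µM and 0.44 at 10 µM. The within-lane ratio of Igfbp4 to Igfbp6 FPKM was 1.13 and 1.14 without the drug, 6.05 and 5.83 with 5 µM, and 5.74 and 5.78 with 10 µM.

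Igfbp7 encodes a secreted relative of this family that binds IGFs weakly and is known from vessel walls and matrix. It stood at 18.2 and 16.5 FPKM without the drug, at 39.2 and 43.9 FPKM with 5 µM, and at 41.0 and 41.6 FPKM with 10 µM. The treated lanes were all above the untreated ones, and the lanes of 5 and 10 µM overlapped. The log2 fold was 1.21 (1.13 to 1.28) at 10 µM and 1.21 (1.07 to 1.36) at 5 µM. Polr2b, an RNA polymerase II subunit gene on the opposite strand that overlaps Igfbp7, had means of 43.0, 33.5 and 26.6 FPKM at 0, 5 and 10 µM.

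Igfbp3, the main carrier of IGFs in blood, had a nearly level course. It was at 9.46 and 9.73 FPKM at 0 µM, at 10.4 and 10.7 FPKM at 5 µM and at 9.93 and 10.8 FPKM at 10 µM. The treated lanes were above the untreated ones by little, with a log2 fold of 0.10 (0.03 to 0.18) at 10 µM and 0.12 (0.09 to 0.16) at 5 µM. The median difference between lanes of 1 dose, over all genes, was 0.05 to 0.06 in the same unit. With files scaled to the same sum outside small nucleolar RNA genes, the fold at 10 µM was 0.30, still short of 1.5-fold.

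Igfbp2 and Igfbp5, which lie next to each other on chromosome 1, were close to the limit of detection without the drug. Igfbp2, a binding protein known from glioma, was at 0.086 and 0.032 FPKM at 0 µM, at 0.22 and 0.28 FPKM at 5 µM and at 0.30 and 0.39 FPKM at 10 µM. Igfbp5, known to bind matrix, was at 0.018 and 0.026 FPKM at 0 µM, at 0.30 and 0.29 FPKM at 5 µM and at 0.24 and 0.15 FPKM at 10 µM. For both genes every lane with the drug was above both lanes without it. With the longest transcript taken as the only one, Igfbp2 had 6 fragments in both lanes together at 0 µM, 20 at 5 µM and 23 at 10 µM, as rounded sums. By lane the values were 4.32 and 1.59, 8.96 and 11.46, and 9.95 and 12.70, and several are not whole. The assumption therefore holds only roughly, and the ratios and intervals that follow are approximate. At equal depth the ratio of Igfbp2 to 0 µM was 4.10 at 5 µM (95% interval 1.59 to 12.5) and 5.85 at 10 µM (2.31 to 17.6). Igfbp5 had 12, 131 and 70 fragments by the same reckoning, with ratios of 13.4 (7.43 to 26.6) and 8.90 (4.78 to 18.0). These exact binomial intervals cover counting error in these libraries only. The files of a dose differed by more than counting error, as given above, so the intervals may be too narrow even for these libraries. Igfbp1, outside the 10 genes, was at 0 in every file.

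Added up over the 6 binding protein genes, the untreated lanes held 525 and 530 FPKM, the 5 µM lanes 782 and 803 FPKM and the 10 µM lanes 752 and 749 FPKM. Igfbp4 made up 50.5% of it at 0 µM, 79.9% at 5 µM and 79.3% at 10 µM in the mean of the lanes. The share of Igfbp6 went from 44.4% to 13.4% and 13.8%. Igfbp7 held 3.29%, 5.24% and 5.50%, Igfbp3 held 1.82%, 1.33% and 1.38%, and Igfbp2 and Igfbp5 each held under 0.06% in every lane. The lanes of a library differed in the share of Igfbp4 by less than 1 percentage point, so the untreated library stood apart from both treated ones.

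**Figure D3:**
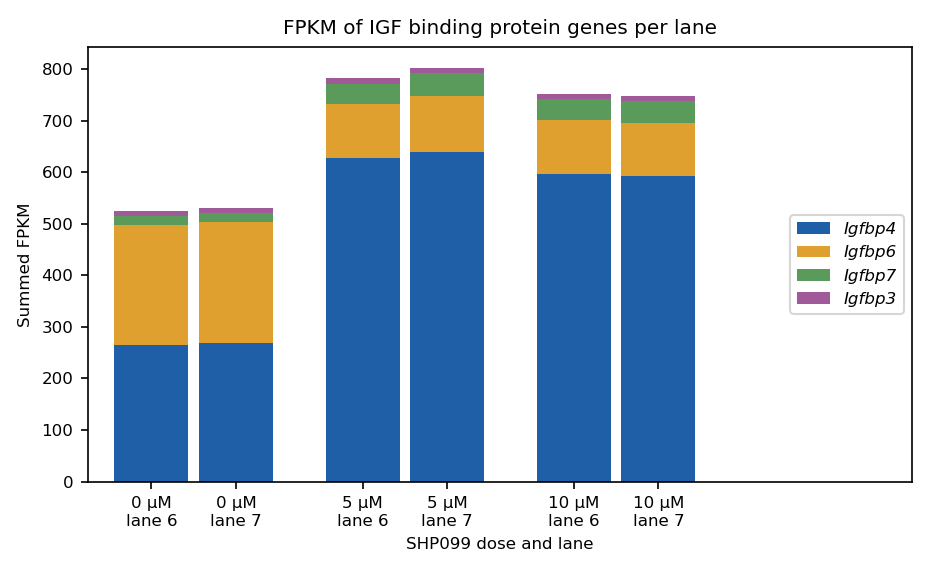
Summed FPKM (vertical axis) of Igfbp4, Igfbp6, Igfbp7 and Igfbp3 in each lane at 0, 5 and 10 µM SHP099; each bar is 1 lane file and the stacked colours are the genes. Igfbp2 and Igfbp5 are too low to be drawn. The part of Igfbp4 grows from means of 266.7 FPKM at 0 µM to 594.8 FPKM at 10 µM, while that of Igfbp6 shrinks from 234.1 to 103.3 FPKM.

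By level, the order at 0 µM was Igfbp4, Igfbp6, Igf2r, Igfbp7, Igf1r, Igfbp3, Igf1, Igfbp2, Igf2 and Igfbp5. Igf2 and Igfbp5 overlapped between lanes, and every other pair of neighbours was separated by the lanes. At 5 µM, Igf2r stood above Igfbp6, and the lanes of Igfbp3 and Igf1r overlapped. The order at 10 µM was the same as at 5 µM down to Igf1, with Igfbp3 and Igf1r again overlapping. Below Igf1 at 10 µM, the spread of Igf2 covered Igfbp2 and Igfbp5.

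Markers of stromal cells that are known to express binding proteins moved as well. Of 9 markers of fibroblasts and meninges, 6 reached 1 FPKM. At 10 µM 3 of them rose and 1, Twist2, fell, beside 15.7% and 19.1% of all genes. Summed, the 9 markers ranged from 1965 to 1966 FPKM between the untreated lanes, from 3870 to 3880 FPKM for 5 µM and from 3660 to 3682 FPKM for 10 µM. Nearly all of it came from the collagen genes Col1a1 and Col1a2, and Aldh1a2 was at 0 in every file. Of 6 pericyte markers, Pdgfrb and Notch3 reached 1 FPKM and both rose at 10 µM, beside 15.7% of all genes. Rgs5 went the other way at low levels, with means of 0.13, 0.04 and 0.03 FPKM at 0, 5 and 10 µM. Cspg4 had means of 0.07, 0.15 and 0.10 FPKM, Abcc9 of 0, 0.004 and 0 FPKM, and Kcnj8 was at 0 in every file. Summed FPKM of the 6 ran from 40.8 to 41.4 at 0 µM, from 75.1 to 75.9 at 5 µM and from 68.0 to 69.5 at 10 µM. None of 7 endothelial markers reached 1 FPKM, and Kdr, Cldn5 and Erg were at 0 in every file. The part of such cells in the levels of Igfbp4 and Igfbp7 was not tested, and in bulk RNA fewer cells of a type cannot be told apart from less RNA per cell. Of 6 neuron markers, Tubb3 (log2 fold 0.15) and Stmn2 (-1.01) reached 1 FPKM, and Stmn2 fell, as Igfbp6 did, beside 19.1% of all genes. The list summed to 254 to 259 FPKM in the untreated lanes, 141 to 142 FPKM for 5 µM and 135 to 136 FPKM for 10 µM, nearly all from Stmn2. At 0, 5 and 10 µM the means were 0.54, 0.30 and 0.30 FPKM for Syt1 and 0.16, 0.06 and 0.05 FPKM for Map2. Rbfox3 had 0.02, 0 and 0.01 FPKM, and Snap25 was at 0 in every file. The part of such cells in the level of Igfbp6 was not tested. Of 7 oligodendrocyte lineage markers, Cnp (0.06) reached 1 FPKM, and Olig1 and Olig2 were at 0 in every file.

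Outside the 10 genes, 72 other genes of the pathway were listed by role and 51 of them were compared. At 10 against 0 µM, 15 rose and 3 fell, beside 15.7% and 19.1% of all genes. These shares of all genes also apply to each list below. Wisp2 and Sort1, among the genes that rose, were under 1 FPKM at 0 µM and were compared only through their treated level. The median log2 fold of the pathway genes was 0.25 against -0.03 for all genes. At 5 against 0 µM, 16 rose and 2 fell, and none passed at 10 against 5 µM. Under a 2-fold rule 9 rose and 0 fell at 5 µM. The lists share a few genes. They were chosen with earlier results of these data known, so the counts are no independent support for a change of the pathway.

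Of 10 genes for proteases of binding proteins, their inhibitors and the carrier complex, 5 were compared. At 10 µM 4 of these rose, beside 15.7% of all genes. The median over the 5 was 1.07 on the log2 scale, on which the changes below are also given. Adamts1, a matrix metalloprotease, rose by 1.24 and its relative Adamts9 by 1.07. Ctsd, the lysosomal protease cathepsin D, rose by 1.19, from 455 to 1040 FPKM, and the secreted serine protease gene Htra1 by 1.03, from 208 to 426 FPKM. Stc2, an inhibitor of PAPP-A, was at -0.36 and did not pass. Pappa, the gene of the protease that cuts IGFBP4, had means of 0.002, 0.008 and 0.011 FPKM at 0, 5 and 10 µM, under the level of 3 fragments of a 2 kb transcript.

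On the receptor side, 8 of 13 genes for insulin, its receptor, docking proteins and adaptors were compared. At 10 µM 4 rose and 1 fell, beside 15.7% and 19.1% of all genes, with a median of 0.58 for the list. Irs1, which docks PI3 kinase to the activated IGF1 and insulin receptors, rose from 7.03 to 25.4 and 30.3 FPKM, by 1.96 at 10 µM. Grb14, an adaptor that inhibits the insulin receptor, rose by 1.09, and Socs2, a feedback inhibitor of growth hormone signalling, by 1.07. Ptpn1, a tyrosine phosphatase that acts on both receptors, fell by 0.70, and with files scaled to the same sum outside small nucleolar RNA genes it was at -0.49 and did not pass. Insr, the insulin receptor gene, was at 7.42, 10.2 and 10.0 FPKM (log2 fold 0.39 at 10 µM), and Ins1 and Ins2 were at 0 in every file.

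Of 18 genes from PI3 kinase to mTOR, 2 rose, 1 fell and 15 did not pass at 10 µM, with a median of 0.00. Both shares were under the 15.7% and 19.1% of all genes. Pik3r3, a regulatory subunit of PI3 kinase, rose by 1.49 and Pik3r1, another, by 0.73. Mtor, the kinase at the end of the list, fell by 0.79, from 25.4 to 14.3 FPKM. Of the growth hormone axis, whose receptor drives Igf1 in liver, 5 of 6 genes were compared and Socs2 rose; Ghr, the growth hormone receptor gene, was at 44.6, 69.5 and 63.2 FPKM and passed at 5 µM (0.63) but not at 10 µM (0.49).

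The mannose 6-phosphate pathway, in which the Igf2r product is a receptor, had 6 genes compared, Igf2r included. At 10 µM 4 rose, Igf2r among them, and none fell, beside 15.7% and 19.1% of all genes. The median of the list was 0.73. Sort1, the sorting receptor sortilin, rose from 0.96 to 8.02 FPKM (2.20, and 1.13 with a pseudocount of 5 FPKM). Its mean at 0 µM was under 1 FPKM, so it was compared only through its treated level. Gnptg (0.82), a subunit of the enzyme that makes the mannose 6-phosphate tag, and Nagpa (0.63), which uncovers it, rose too, although Nagpa did not pass without the lane 7 file of 0 µM (0.56), in the lane 6 files alone (0.54) or with a pseudocount of 5 FPKM (0.50). M6pr, the gene of the other mannose 6-phosphate receptor, was at -0.06.

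Of 3 genes for proteins that bind IGF2 messenger RNA, Igf2bp1 fell by 0.80, from 16.04 to 8.76 FPKM, and Igf2bp2 (-0.43) and Igf2bp3 (-0.35) did not pass. Among 9 other genes with an IGF binding domain or of the remaining family, 6 were compared, and Wisp2, a matricellular gene, rose from 0.78 to 6.56 FPKM (2.08, and 1.00 with a pseudocount of 5 FPKM). Wisp2 too was under 1 FPKM at 0 µM and was compared only through its treated level. Its relatives Cyr61 (-0.02) and Ctgf (0.37) did not pass, and the median over the 6 was 0.17. Of 10 genes of an imprinted growth network, 2 were compared: Dcn, the proteoglycan decorin, rose by 1.04 and Gnas (0.35) did not pass.

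**Figure D4:**
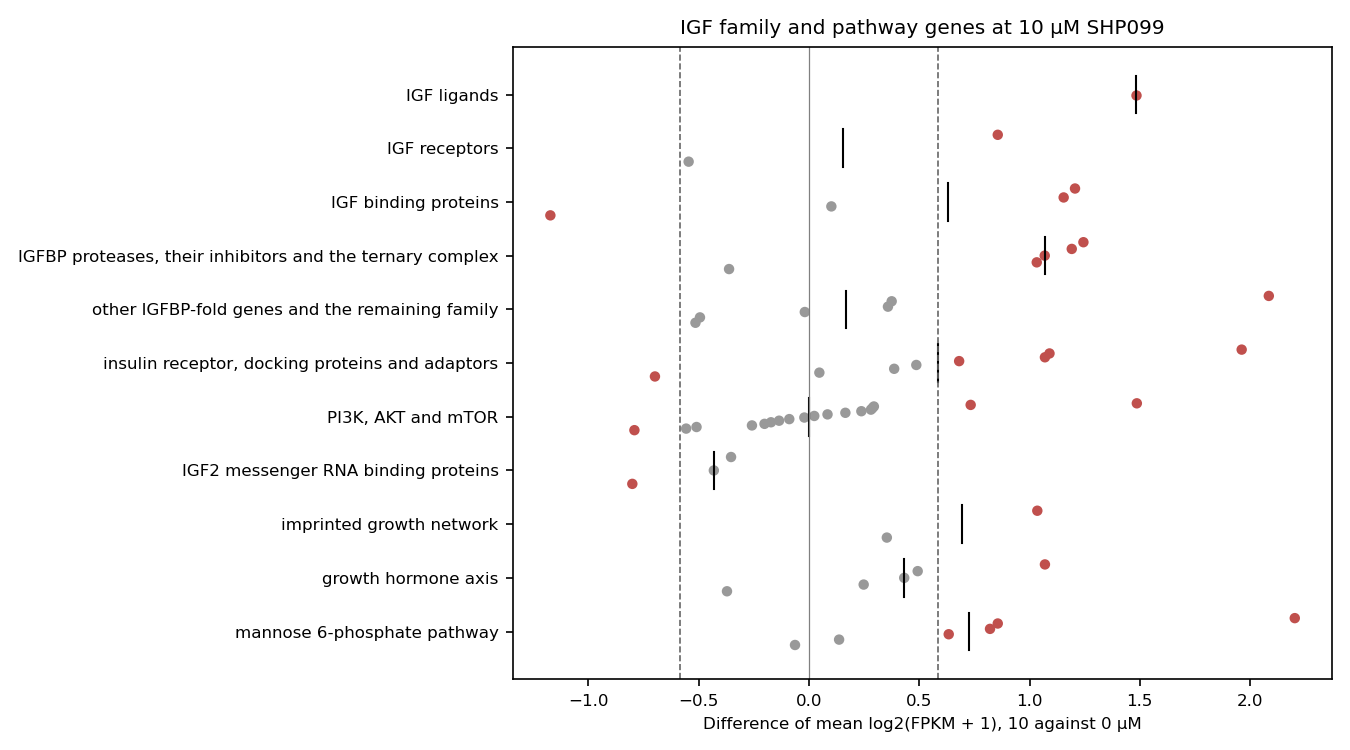
Difference of mean log2(FPKM + 1) at 10 against 0 µM (horizontal axis) for each compared gene of the IGF family and of 8 lists of pathway genes (rows); points are genes, red where the gene passed and grey where it did not, black bars are medians and dashed lines mark 1.5-fold. Of the protease list 4 of 5 genes lie to the right of 1.5-fold, and of PI3 kinase to mTOR 15 of 18 lie between the dashed lines.

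The genes nearest to Igf1 and Igfbp7, the 2 IGF genes with the largest folds at 10 µM on the log2(FPKM + 1) scale, were sought by the distance between their pairs of log2 folds (5 and 10 against 0 µM) among 9351 named genes with at least 5 FPKM in some dose. For Igf1 these were Nckap5 (1.21 and 1.52), Ypel5 (1.21 and 1.52) and Gramd1b (1.17 and 1.47). Nckap5 (1.59, 4.97 and 6.38 FPKM at 0, 5 and 10 µM) and Gramd1b (1.47, 4.55 and 5.86 FPKM) entered the search only through their 10 µM level. Igf1 itself stayed under 5 FPKM. Near its untreated level the filter admits only genes that rose, so the rise of these neighbours is partly set by it. The likeness of Ypel5, a gene at a higher level (18.4, 43.8 and 54.7 FPKM), depends on the pseudocount: at 10 µM its fold was 1.57 with 0.1 FPKM and 1.35 with 5 FPKM, against 2.05 and 0.69 for Igf1. For Igfbp7, which was level between 5 and 10 µM, they were Mmd, Vgll4 (1.21 and 1.23) and Itm2c (1.21 and 1.18). The distances ran from 0.015 for Mmd to 0.043 for Gramd1b, over 3 libraries, and describe likeness in these libraries only.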

How the data were processed

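Per the file headers, each deposited file holds 1 FPKM value per gene; the labels give its lane. Bowtie 0.12.2 and the build mm8 are named in the submitters' processing notes; the program that made the FPKM, any scaling between files and the use of strand are not given in the sources used here. Files of a dose share a name up to the lane and are numbered R1 and R2. They were taken as repeat runs of 1 library, although no label says outright that they are not separate libraries.

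FPKM were used as deposited. Rows of a symbol were summed (110 symbols have several). A gene was compared if its mean reached 1 FPKM at any dose, on log2(FPKM + 1) by the size rule given in the text; levels are arithmetic means. Depth was fitted so that genes with 1 transcript of 1500 to 6000 bases in GENCODE M21, with 240 bases subtracted, had whole fragments under 10; between 97.7% and 98.4% of 1309 to 1405 genes per file were whole within 0.1. Fragments of these genes, with at least 20 in the files of a dose together, were compared between lanes by chi-square. That annotation holds 53270 of the 53460 gene identifiers.

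The 10 genes, the lists and the rules were chosen with earlier results of these data known. Named pathway genes are up to 4 passing genes per list, by size of fold at 10 against 0 µM, or else its 2 most abundant; Stc2, Pappa, Insr, Ins1, Ins2, Ghr, M6pr, Igf2bp2, Igf2bp3, Cyr61, Ctgf, Gnas, H19, Igfbp1 and single markers were picked with their values in view. As alternatives, pseudocounts of 0.1 and 5 FPKM, other filters, scaling by trimmed means, to a median fold of 0 or to the same sum without small nucleolar RNA genes, single lanes, each lane file left out, a 2-fold rule and protein-coding genes alone were tried; applying them to pathway genes was decided after seeing the data. Computations used Python 3.11.15, numpy 2.4.6, pandas 2.3.3, scipy 1.17.1 and matplotlib 3.10.9.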

Additional observations from a re-analysis of the deposited data

How the results depend on the processing

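The 5 IGF genes that passed at 10 against 0 µM kept their direction under the 17 alternatives, and those at 5 against 0 µM did too. Igf1 has a value under 16, since its mean stayed under the 5 FPKM of the stricter filter at every dose. Calls were lost by Igf2r under the 2-fold rule at both doses and by Igf1 at 5 µM with a pseudocount of 5 FPKM. With no filter on low values, Igf2 also passed as higher at 5 µM (0.63), which makes 5 of 10. With Igf1r passing as lower, 2 IGF genes in place of 1 were lower at 10 µM with a pseudocount of 0.1 FPKM, in the lane 6 files alone and without the lane 7 file of 10 µM; leaving out lane files gave 1 to 2. The log2 fold of Igf1 at 10 µM ran from 0.69 with a pseudocount of 5 FPKM to 2.05 with 0.1 FPKM. The summed FPKM of binding proteins was 810 at 5 and 767 at 10 µM with trimmed mean scaling, and 899 and 872 with equal sums outside small nucleolar RNA genes.

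Over all genes, a pseudocount of 5 FPKM gave 1029 higher genes at 10 and 927 at 5 µM, and the same equal sums gave 3032 higher at 10 µM (3032 and 1601 higher and lower; 2641 and 1410 at 5 µM, in place of 1771 and 2107). The 2-fold rule gave 733 higher and 995 lower at 10 µM, 652 and 755 at 5 µM and 15 and 28 between 10 and 5 µM. Between 10 and 5 µM, in place of 52 higher and 170 lower, the counts were 116 and 309 with a pseudocount of 0.1 FPKM, 10 and 38 with 5 FPKM, 123 and 271 in lane 6 alone and 135 and 260 in lane 7 alone. There 15 genes were higher at 5 FPKM or more and 14 among protein-coding genes, and 51 to 109 with 1 lane file left out. Of the pathway genes, 5 were lower at 10 µM with a pseudocount of 0.1 FPKM and 0 under the 2-fold rule, in place of 3; at 5 µM, 5 were lower with 0.1 FPKM and 0 with 5 FPKM, equal sums or the 2-fold rule, in place of 2, and 9 were higher under the 2-fold rule, in place of 16. Over the alternatives the fold at 10 µM ran from 1.00 to 2.92 for Wisp2, from 1.13 to 2.94 for Sort1, from 0.59 to 1.35 for Grb14 and from 0.75 to 2.15 for Notch3. The cause of these shifts was not tested. If the files of a dose are lanes of 1 library, as read here, variation between cultures is unknown, and Igf2, Igfbp2 and Igfbp5 are too low at 0 µM for a firm fold.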
